A study of Mus musculus with 6 samples.

Results

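Kinetochore and spindle checkpoint genes were described in mouse embryonic fibroblasts, connective tissue cells taken from the embryo and kept in culture. The set was a list of 41 gene symbols, chosen with earlier results of these data known. The symbols were matched in the platform table to probe sets that carry a single gene symbol. All 41 were measured, each by 1 probe set, among 19939 genes in all. The study set a tetraploid line, labelled as having abnormal DNA content and called transformed in the series title, against a diploid line whose label gives it as a normal control. For both, total RNA went onto 3 Affymetrix whole-transcript arrays, from cells grown in the same serum-containing medium and harvested short of confluence. With 1 line per ploidy, the effects of DNA content, of transformation and of the line itself cannot be told apart. Whether the samples of a line came from separate cultures is not given, so every p-value measures only the spread between these samples, which may be technical.

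The kinetochore is the protein assembly that ties a chromosome to the microtubules of the spindle. Its inner part, the constitutive centromere-associated network, sits on chromatin marked by the histone variant CENP-A. Its outer part, built around the MIS12 and NDC80 complexes, holds the microtubule. Kinetochores without a microtubule switch on the spindle checkpoint, which holds back the anaphase promoting complex, and so separase, until every chromosome is attached. In fibroblasts in culture most of these genes are transcribed mainly in the later part of the cell cycle, so their level in a bulk sample follows both how many cells are dividing and how much RNA each one holds. These cannot be told apart here.

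Most of the genes were higher in the tetraploid line, with group medians between 1.20 and 1.73 log2. Of the 41, 33 rose (80.5%), 0 fell, and 8 had an adjusted p of 0.05 or more, where limma called 6.08% of all genes tested as rising and 7.75% as falling. Over all genes 13.8% were called. Because the list was chosen with earlier results known, these shares are a description with no test. The median log2 difference (tetraploid minus diploid) was 1.33 over the 41 genes and 0.07 over all genes tested. In 36 of the 41 genes the 3 tetraploid values lay above the 3 diploid values, as they did in 19.1% of all genes. The mean of the 41 genes was 9.55, 9.24 and 9.20 log2 on tetraploid arrays 1 to 3, against 7.94, 7.81 and 8.41 on diploid arrays 1 to 3. The lowest tetraploid mean was thus above the highest diploid mean.

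**Figure D1:**
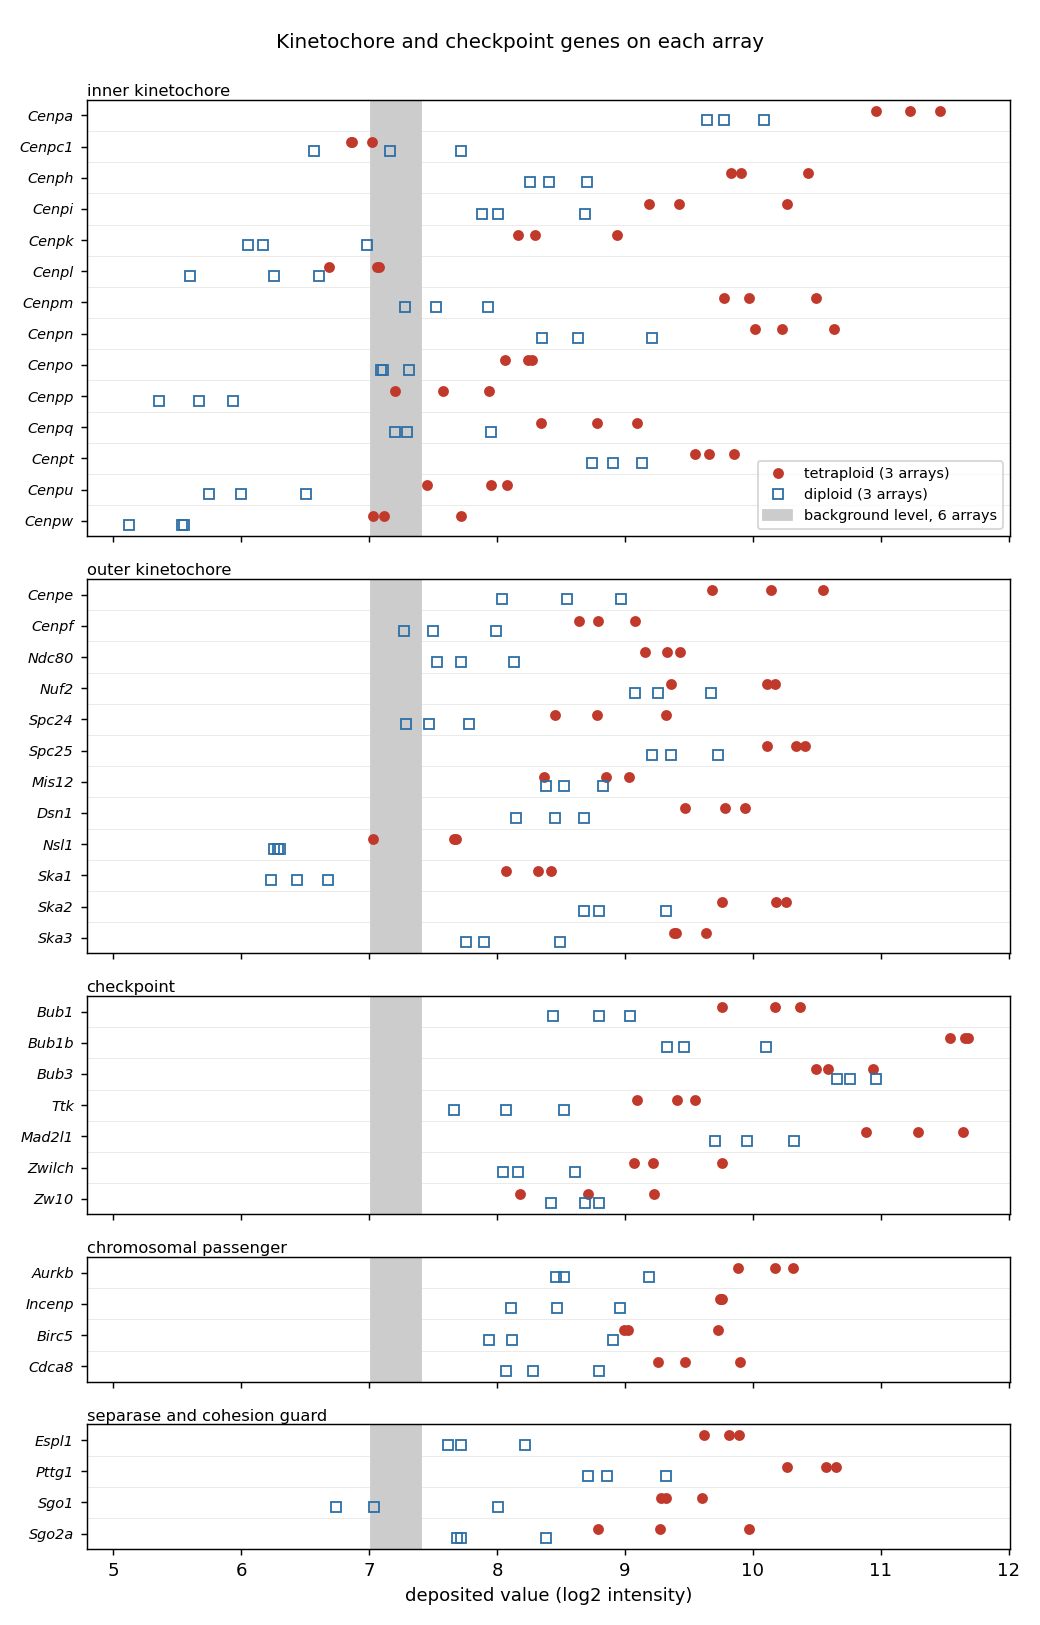
Deposited log2 intensity (x axis) of each gene on each array, in 5 role groups, with tetraploid arrays as filled circles above and diploid arrays as open squares below. The grey band spans the background level of the 6 arrays. In 36 of the 41 genes the circles lie to the right of all squares, while Bub3, Zw10, Mis12, Cenpc1 and Nuf2 overlap.

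The calls depended on single arrays. The direction of the called genes could not change in these fits, since all their tetraploid values lay above all their diploid values. The number of the 41 genes called was 12, 9 and 27 in the fits without diploid array 1, 2 and 3, and 21, 20 and 24 in those without tetraploid array 1, 2 and 3. Calls over all genes were also fewer in each fit, at 1040, 839, 1262, 2522, 1589 and 2370 in this order, against 2758 with all 6 arrays. The shares of called members and of all called genes that were kept nearly agreed in some fits. They were 36.36% and 35.93% without diploid array 1, 27.27% and 29.95% without diploid array 2, and 72.73% and 72.52% without tetraploid array 3. Without tetraploid array 2 they were 60.61% and 53.81%. The remaining fits differed most. Without diploid array 3, 81.82% of the called members and 44.27% of all called genes were kept. Without tetraploid array 1 these shares were 63.64% and 74.15%. Across these 6 fits the difference of each of the 33 called genes stayed at 0.74 or above, and their adjusted p at 0.159 or below. The genes called in all 6 fits numbered 9, namely Cenph, Cenpm, Cenpp, Cenpw, Ndc80, Ska1, Bub1b, Espl1 and Sgo1.

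Array 3 of the diploid line stood apart for these genes. It had the highest of the 3 diploid values in 39 of the 41 genes (95.1%), against 39.2% of all genes, and diploid array 2 had the lowest in 29. In the tetraploid line array 1 was the highest in 30 of the 41 (73.2%), against 37.4% of all genes. The markers of proliferating cells moved with them: diploid array 3 was the highest for 17 of 17, diploid array 2 the lowest for 15, and tetraploid array 1 the highest for 11. The median deviation of the 41 genes from their line's mean was 0.36 log2 on diploid array 3 and 0.21 on tetraploid array 1. Their median SD over 3 arrays was 0.308 in the tetraploid line and 0.322 in the diploid line, where the medians over all genes were 0.345 and 0.235.

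Promoters of 4 genes are shown because many genes of the late cell cycle share 2 short elements near their start, the cell cycle genes homology region and the CCAAT box. Sequences are those of RefSeq (GRCm38.p6), from 250 bases before to 50 after the annotated start, written 5′ to 3′ on the gene's strand. The 4 are the called genes with the largest differences among those above background on all 6 arrays that hold TTTGAA or TTCGAA. Capitals mark the element TTTGAA with its variant form TTCGAA, as well as the box CCAAT, on either strand. An element on the other strand reads TTCAAA when printed here, while a box there reads ATTGG. No marked motifs overlap, and positions are given relative to the annotated start.
Cenpm, chr15:82244287-82244586, minus strand: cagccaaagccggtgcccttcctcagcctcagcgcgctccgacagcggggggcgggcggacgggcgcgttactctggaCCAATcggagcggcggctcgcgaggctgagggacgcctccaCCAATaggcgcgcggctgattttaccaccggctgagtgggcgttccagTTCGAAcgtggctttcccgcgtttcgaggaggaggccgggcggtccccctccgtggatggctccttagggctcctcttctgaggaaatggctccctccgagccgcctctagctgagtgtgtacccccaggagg
Bub1b, chr2:118597961-118598260, plus strand: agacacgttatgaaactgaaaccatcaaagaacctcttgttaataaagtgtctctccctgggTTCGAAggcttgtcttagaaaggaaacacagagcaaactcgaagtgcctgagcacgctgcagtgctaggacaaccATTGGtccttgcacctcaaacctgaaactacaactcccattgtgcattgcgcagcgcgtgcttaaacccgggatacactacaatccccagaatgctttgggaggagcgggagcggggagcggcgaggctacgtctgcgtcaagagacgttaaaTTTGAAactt
Espl1, chr15:102296043-102296342, plus strand: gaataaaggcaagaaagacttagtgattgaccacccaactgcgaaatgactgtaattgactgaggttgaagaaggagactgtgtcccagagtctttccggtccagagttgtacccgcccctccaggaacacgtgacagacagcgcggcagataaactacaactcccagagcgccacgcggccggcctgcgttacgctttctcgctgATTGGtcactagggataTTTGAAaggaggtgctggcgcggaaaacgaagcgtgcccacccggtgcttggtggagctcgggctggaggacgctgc
Cenpn, chr8:116921490-116921789, plus strand: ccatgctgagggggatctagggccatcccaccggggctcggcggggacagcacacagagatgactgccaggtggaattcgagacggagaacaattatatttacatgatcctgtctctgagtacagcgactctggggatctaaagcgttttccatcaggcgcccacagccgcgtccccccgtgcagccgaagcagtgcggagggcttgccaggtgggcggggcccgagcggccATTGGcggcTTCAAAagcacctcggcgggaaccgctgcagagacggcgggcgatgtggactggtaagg
In Cenpm, TTCGAA lies at -83 and CCAAT at -172 and -131. In Bub1b, TTCGAA lies at -188, ATTGG at -113 and TTTGAA at 41. In Espl1, ATTGG at -44 is followed by TTTGAA at -27. In Cenpn the order is the same, with ATTGG at -18 and TTCAAA at -9. The table held promoters of 35 of the 41 genes. TTTGAA or TTCGAA was found in 17 of the 35 (48.6%), against 19% of the 15563 tested genes with a promoter, and CCAAT in 24 (68.6%), against 41.7%. Both kinds of motif stood together in 14 (40%), against 8.79%. Of the 27 genes that rose and had a promoter 14 held TTTGAA or TTCGAA (51.9%), and of the 8 that did not pass 3 did (37.5%). These are matches of letters, given as a description.

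Inner kinetochore genes rose in most cases. Of 14, 11 rose, 0 fell and 3 did not pass, with a median difference of 1.50 log2. Cenpm, a subunit of the CENP-H/I/K/M group that bridges centromeric chromatin and the outer kinetochore, had the largest difference of the 41 genes. It stood at 10.49, 9.97 and 9.77 on the tetraploid arrays, against 7.28, 7.52 and 7.93 on the diploid arrays (5.64-fold higher, log2 difference 2.50, 95% interval 1.84 to 3.15, adjusted p = 0.00354). All tetraploid values were at least 1.84 above the highest diploid value. Cenph, of the same group, stood at 10.43, 9.83 and 9.91 against 8.41, 8.26 and 8.70 in diploid cells and was 3.03-fold higher (adjusted p = 0.00994). Cenpk read 8.94, 8.16 and 8.30 in tetraploid cells, and 6.17, 6.05 and 6.98 in diploid cells, all at or below background, and was thus at least 2.46-fold higher (adjusted p = 0.0115). Cenpi was 2.70-fold higher, with its tetraploid values between 9.19 and 10.27 and its diploid values between 7.88 and 8.69 (adjusted p = 0.0422).

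Cenpa, the histone variant that marks the centromere, read 11.46, 11.23 and 10.96 on the tetraploid arrays, against 9.77, 9.64 and 10.09 on the diploid arrays. It was 2.61-fold higher (log2 difference 1.38, 95% interval 0.84 to 1.93, adjusted p = 0.0123), and its groups did not overlap. Cenpn, which recognises CENP-A nucleosomes and whose promoter is printed above, was 2.96-fold higher, at 10.29 ± 0.31 against 8.73 ± 0.44 in diploid cells (SD, n = 3; adjusted p = 0.0173). Genes of the CENP-O/P/Q/U group all rose. Cenpo was 2.03-fold higher, measured above background on 1 diploid array, and Cenpq 2.38-fold, on 2 (adjusted p = 0.0168 and 0.0370). Cenpp, with 2 tetraploid arrays above background, and Cenpu, with 3, did not exceed it on any diploid array and were at least 1.33-fold and at least 1.58-fold higher (adjusted p = 0.00723 and 0.0115). Cenpw, the histone-fold partner of CENP-T, was above background on 1 tetraploid array and on no diploid array (7.03, 7.72 and 7.12 against 5.55, 5.12 and 5.54 in diploid cells), so its bound is at least 1.09-fold higher (adjusted p = 0.00720).

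The 3 inner kinetochore genes that did not pass were unlike each other. Cenpt, which recruits NDC80 complexes, was close to the threshold, with 9.66, 9.85 and 9.55 on the tetraploid arrays, against 8.74, 8.91 and 9.13 on the diploid arrays. Its groups did not overlap (log2 difference 0.76, 95% interval 0.28 to 1.25, adjusted p = 0.0525). Cenpl lay at or below background on all 6 arrays, so no fold is given (adjusted p = 0.131). Cenpc1, which encodes CENP-C, the scaffold between CENP-A and the MIS12 complex, read 7.02, 6.86 and 6.87 on the tetraploid arrays, none above background, against 7.16, 6.57 and 7.72 on the diploid arrays. Its log2 difference was -0.23 (95% interval -0.96 to 0.49, adjusted p = 0.673). Cenpp and Cenpw lost their calls once values were raised to background (adjusted p = 0.0724 and 0.463). Without diploid array 2 the calls of Cenpa, Cenpi, Cenpk, Cenpn, Cenpo, Cenpq and Cenpu ended (adjusted p 0.0508 to 0.138), and without diploid array 1 those of Cenpa, Cenpi, Cenpn, Cenpo and Cenpq (0.0519 to 0.132). The call of Cenpi also ended in the 4 other fits without 1 array (adjusted p 0.0568 to 0.0743), that of Cenpq without tetraploid array 1 or 3 (0.0805 and 0.0843), and that of Cenpn without tetraploid array 2 (0.0522).

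Outer kinetochore genes rose in 10 of 12 cases, with 0 falls, 2 that did not pass and a median difference of 1.28 log2. Ndc80, the subunit that grips the microtubule, stood at 9.33, 9.16 and 9.43 on the tetraploid arrays, against 7.72, 7.53 and 8.13 on the diploid arrays. It was 2.86-fold higher (log2 difference 1.51, 95% interval 0.98 to 2.05, adjusted p = 0.00916), without overlap. Spc24 and Spc25, which anchor the NDC80 complex to the inner side, were 2.52-fold and 1.81-fold higher (adjusted p = 0.0251 and 0.0466). Nuf2, the direct partner of Ndc80, read 10.17, 9.36 and 10.11 in tetraploid cells, against 9.08, 9.26 and 9.67 in diploid cells. These overlap, and the difference did not pass (0.54, 95% interval -0.15 to 1.24, adjusted p = 0.276).

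In the MIS12 complex, the platform for NDC80, Dsn1 was 2.47-fold higher, at 9.73 ± 0.24 in tetraploid cells against 8.43 ± 0.26 in diploid cells (SD, n = 3; adjusted p = 0.0153). Nsl1 exceeded background on 2 tetraploid arrays and on no diploid array and was at least 1.22-fold higher (adjusted p = 0.0225). Mis12 itself read 9.03, 8.85 and 8.37 against 8.83, 8.38 and 8.52 in diploid cells. Its groups overlapped and it did not pass (0.17, 95% interval -0.42 to 0.76, adjusted p = 0.711).

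The SKA complex, which keeps kinetochores on shrinking microtubule ends, rose in all 3 members. Ska1 read 8.42, 8.32 and 8.07 in tetraploid cells, against 6.23, 6.44 and 6.68 in diploid cells. The diploid values were all below background, so it was at least 2.15-fold higher (adjusted p = 0.00420). Ska3 was 2.68-fold and Ska2 2.19-fold higher (adjusted p = 0.0145 and 0.0317). Cenpe, a kinesin motor that brings chromosomes to the spindle centre, read 10.55, 10.14 and 9.68 in tetraploid cells, against 8.55, 8.04 and 8.97 in diploid cells, and was 3.04-fold higher (adjusted p = 0.0230). Cenpf, a large protein of the outermost kinetochore layer, was 2.38-fold higher (adjusted p = 0.0232). Nsl1 lost its call once values were raised to background (adjusted p = 0.0680). Without diploid array 1 or diploid array 2 the calls of Cenpe, Cenpf, Spc24, Spc25, Dsn1, Nsl1, Ska2 and Ska3 ended (adjusted p 0.0580 to 0.159). Those of Spc24, Spc25 and Nsl1 ended without diploid array 3 (0.0552 to 0.0731), those of Cenpe, Cenpf, Spc25 and Ska2 without tetraploid array 1 (0.0515 to 0.0869), those of Cenpe, Spc24, Spc25 and Ska2 without tetraploid array 2 (0.0639 to 0.0862), and those of Cenpf, Spc25 and Nsl1 without tetraploid array 3 (0.0516 to 0.0940).

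**Figure D2:**
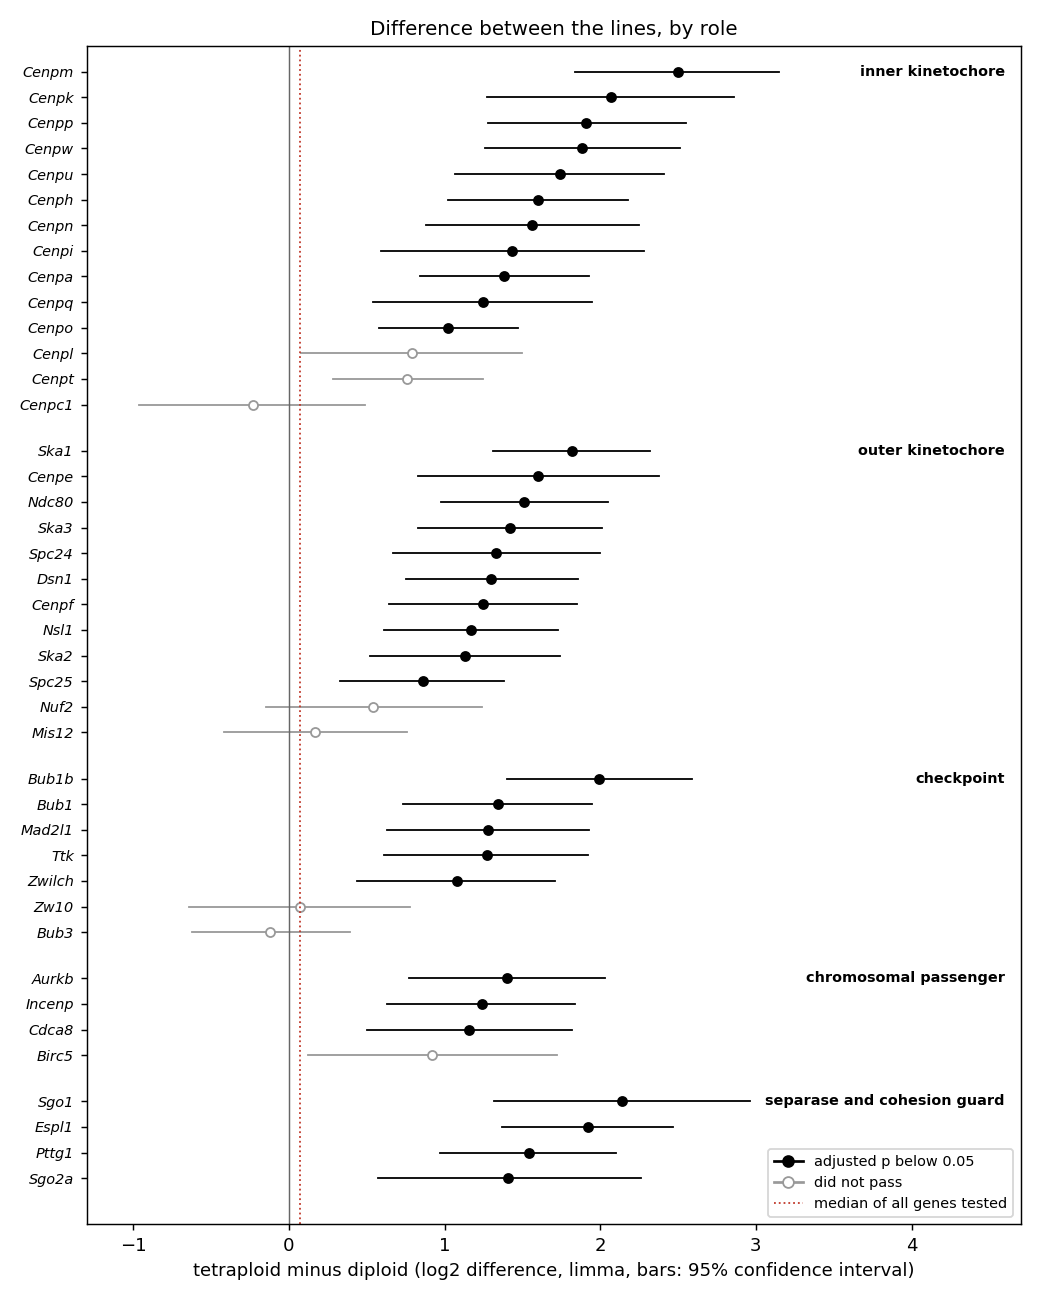
Log2 difference of each gene, tetraploid minus diploid (x axis), with its 95% confidence interval, by role group and sorted within it. Filled points passed the test and open points did not, and the dotted line is the median of all genes tested, 0.07. The 33 filled points lie between 0.86 (Spc25) and 2.50 (Cenpm).

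Most checkpoint genes rose. Of 7, 5 rose, 0 fell and 2 did not pass, with a median difference of 1.27 log2. Bub1b, which encodes BUBR1, part of the complex that inhibits the anaphase promoting complex, read 11.68, 11.66 and 11.54 on the tetraploid arrays, against 9.33, 9.46 and 10.10 on the diploid arrays. It was 3.98-fold higher (log2 difference 1.99, 95% interval 1.40 to 2.59, adjusted p = 0.00520), and the lines lay 1.44 apart at their nearest values. Bub1, the kinase that places other checkpoint proteins and shugoshin, was 2.53-fold higher, at 10.37, 10.17 and 9.76 against 8.80, 8.44 and 9.04 in diploid cells (adjusted p = 0.0191). Ttk, the MPS1 kinase that starts the signal, was 2.41-fold higher, and Mad2l1, which encodes the inhibitor MAD2, 2.43-fold (adjusted p = 0.0283 and 0.0275). Zwilch, of the complex that brings dynein and MAD proteins to the kinetochore, was 2.11-fold higher (adjusted p = 0.0421).

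Bub3, which carries BUB1 and BUBR1 to the kinetochore, read 10.59, 10.49 and 10.94 in tetraploid cells, against 10.76, 10.66 and 10.96 in diploid cells. The groups overlapped and the difference did not pass (-0.12, 95% interval -0.62 to 0.39, adjusted p = 0.772). Zw10, which also acts in membrane traffic, read 9.23, 8.18 and 8.71 against 8.69, 8.42 and 8.80 in diploid cells and did not pass (0.07, 95% interval -0.64 to 0.78, adjusted p = 0.911). The calls of Bub1, Ttk, Mad2l1 and Zwilch ended without diploid array 1 or diploid array 2 (adjusted p 0.0659 to 0.143) and without tetraploid array 2 (0.0506 to 0.0739). Those of Ttk, Mad2l1 and Zwilch ended without tetraploid array 1 (0.0552 to 0.0731), those of Ttk and Zwilch without tetraploid array 3 (0.0673 and 0.0736), and that of Zwilch without diploid array 3 (0.0640).

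The chromosomal passenger complex corrects wrong attachments through the kinase Aurora B. Of its 4 genes 3 rose, 0 fell and 1 did not pass, with a median difference of 1.20 log2, and in all 4 the lines did not overlap. Aurkb, the kinase gene, read 10.31, 10.17 and 9.88 on the tetraploid arrays, against 8.46, 8.52 and 9.19 on the diploid arrays (2.63-fold higher, 95% interval 0.77 to 2.03 log2, adjusted p = 0.0185). Incenp, the scaffold gene, read 9.74, 9.75 and 9.76 against 8.47, 8.11 and 8.96 in diploid cells and was 2.35-fold higher (adjusted p = 0.0235). Cdca8, which encodes borealin, was 2.24-fold higher (adjusted p = 0.0372). Birc5, which encodes survivin, read 9.73, 8.99 and 9.02 against 8.12, 7.94 and 8.91 in diploid cells. Its highest diploid value, on array 3, came within 0.08 of its lowest tetraploid value, and it did not pass (0.92, 95% interval 0.12 to 1.72, adjusted p = 0.122). The calls of Aurkb, Incenp and Cdca8 ended without diploid array 1, diploid array 2 or tetraploid array 2 (adjusted p 0.0559 to 0.135). Those of Incenp and Cdca8 ended without tetraploid array 1 (0.0501 and 0.0747), and that of Incenp without tetraploid array 3 (0.0548).

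Genes that release or guard the link between sister chromatids all rose, 4 of 4, with a median difference of 1.73 log2. Sgo1, which encodes shugoshin 1, the guard of centromeric cohesin, read 9.60, 9.32 and 9.28 on the tetraploid arrays, against 7.04, 6.74 and 8.01 on the diploid arrays. It was 4.40-fold higher (95% interval 1.32 to 2.96 log2, adjusted p = 0.0115), with 1 diploid array above background. Espl1, which encodes separase, the protease that cuts cohesin, read 9.89, 9.81 and 9.62 against 7.72, 7.62 and 8.22 in diploid cells and was 3.79-fold higher (adjusted p = 0.00448). Pttg1, which encodes securin, the inhibitor of separase, read 10.57, 10.65 and 10.27 against 8.71, 8.86 and 9.32 in diploid cells and was 2.90-fold higher (adjusted p = 0.0103). The protease and its inhibitor were thus both higher, with log2 differences of 1.92 and 1.54. Sgo2a, the other shugoshin gene, was 2.66-fold higher, with tetraploid values between 8.79 and 9.97 and diploid values between 7.69 and 8.38 (adjusted p = 0.0436). Without diploid array 2 Pttg1 did not pass (adjusted p = 0.0522). Sgo2a passed only without tetraploid array 2, with adjusted p 0.0638 to 0.143 in the other 5 such fits.

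In several assemblies, CENP-L/N, CENP-T/W/S/X and the chromosomal passenger complex among them, a member did not pass while a partner rose. Of such pairs 4 are described here. These 4 pairs were picked for that difference after their values had been seen, so their ratios are a description with no test. For each, the log2 ratio of the partners was taken on every array and set to a mean of 0 over the diploid arrays. Ndc80 over Nuf2 was 0.70, 1.35 and 0.86 in tetraploid cells and 0.18, -0.18 and 0.00 in diploid cells. Dsn1 over Mis12 was 1.07, 1.08 and 1.25 in tetraploid cells and -0.23, -0.08 and 0.31 in diploid cells. Zwilch over Zw10 averaged 1.01 ± 0.21 on the tetraploid arrays, with an SD of 0.23 on the diploid arrays. Bub1 over Bub3 averaged 1.45 ± 0.53 on the tetraploid arrays, with an SD of 0.16 on the diploid arrays (n = 3 each). Among other assemblies, the differences in CENP-T/W/S/X ran between -0.50 (Cenpx, named after its value was seen, adjusted p = 0.208) and 1.88 (Cenpw, 0.23 once values were raised to background).

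**Figure D3:**
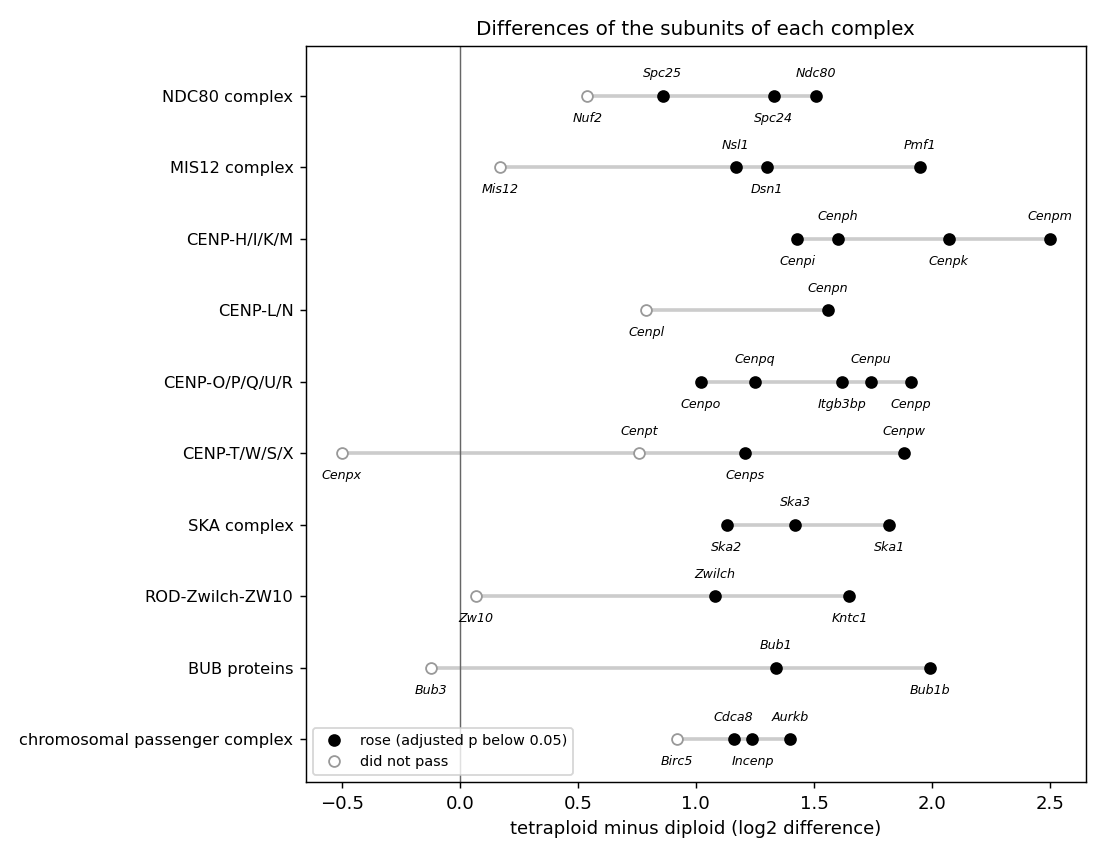
Log2 difference, tetraploid minus diploid (x axis), of the subunits of 10 assemblies, with filled points for genes that passed the test and open points for those that did not. The subunits of CENP-H/I/K/M lie between 1.43 and 2.50, while the BUB proteins span -0.12 to 1.99.

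The other genes of the same machinery that were called were mostly higher, with 1 lower. Of 17 further kinetochore and centromere genes measured, 9 rose, 1 fell and 7 did not pass. Kif18a, a kinesin that damps chromosome movements, was 4.49-fold higher, with 1 diploid array above background (adjusted p = 0.00843). Its log2 difference was 2.17, and 1.81 once values were raised to background. Pmf1, the remaining MIS12 complex gene, was 3.88-fold higher (adjusted p = 0.0111). Ndel1, a dynein regulator, was 1.77-fold lower (adjusted p = 0.0285). Of 24 further checkpoint and anaphase promoting complex genes 6 rose, 0 fell and 18 did not pass. Among the 6 were Trip13, which recycles MAD2 (3.76-fold higher, adjusted p = 0.0169), and Kntc1, the ROD subunit that binds Zwilch and ZW10 (3.13-fold, adjusted p = 0.0396). Kntc1 was above background on 2 diploid arrays. Of 14 cohesin genes 8 rose, 0 fell and 6 did not pass. Cdca5, which encodes sororin, was 2.87-fold higher, with 2 diploid arrays above background (adjusted p = 0.0153). Rad21, the subunit that separase cuts, read 12.35, 12.30 and 12.31 against 10.88, 10.85 and 11.05 in diploid cells (2.62-fold higher, adjusted p = 0.00575). The medians of the 3 lists were 0.82, 0.47 and 0.85 log2. Their counts of rising genes were 3, 0 and 1 without diploid array 1 and 1, 0 and 1 without diploid array 2. They were 7, 4 and 3 without diploid array 3, 7, 5 and 5 without tetraploid array 1, 7, 2 and 3 without tetraploid array 2, and 8, 4 and 6 without tetraploid array 3. Kif18a and Rad21 were called in all 6 of these fits. Pmf1 lost its call without diploid array 2 (adjusted p = 0.0512), as did Trip13 and Cdca5 without diploid array 1 or 2 (0.0523 to 0.0691). Kntc1 lost it without any 1 diploid array or tetraploid array 2 (0.0681 to 0.128), and Ndel1 in all but the fit without tetraploid array 1 (0.0564 to 0.106).

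Most general markers of dividing cells were higher, by about the same amount in the median. Of 17 proliferation markers measured 13 rose (76.5%), 0 fell and 4 did not pass, with a median difference of 1.29 log2 beside 1.33 for the 41 kinetochore and checkpoint genes. Among those that did not pass, Ccne1 was lower in the tetraploid line (-0.50, adjusted p = 0.1925), without overlap. Plk1 (0.57) and Ccne2 (0.72) overlapped between the lines. These markers were named after their values were seen. Mcm5 and Mcm7, subunits of the replicative helicase, were 3.46-fold and 2.83-fold higher (adjusted p = 0.00660 and 0.00838) and were called in all 6 fits without 1 array. The count of rising markers was 2 without diploid array 1 or 2, 10 without diploid array 3, and 8, 5 and 12 without tetraploid array 1, 2 and 3. The mean of the 17 markers was 10.86, 10.60 and 10.43 log2 on tetraploid arrays 1 to 3, against 9.37, 9.25 and 9.84 on diploid arrays 1 to 3. Their part in the rise of the kinetochore genes was not tested. Of 17 regulators of mitotic transcription 2 rose (11.8%, where 6.08% of all genes tested rose), 0 fell and 15 did not pass. The median difference of the 17 was 0.55 log2. Rbl1, the p107 pocket protein, was 3.07-fold higher (adjusted p = 0.0112), and Tfdp1, a partner of E2F proteins, 1.65-fold (adjusted p = 0.0464). Foxm1, an activator of mitotic genes, read 10.56, 9.92 and 9.81 against 8.84, 8.74 and 9.47 in diploid cells. Its groups did not overlap, and it did not pass (1.08, 95% interval 0.36 to 1.80, adjusted p = 0.0595). Mybl2, which encodes B-MYB (0.76, adjusted p = 0.157), and Lin9, which encodes a subunit of the MuvB core (0.58, adjusted p = 0.214), did not pass either. Rbl1 did not pass without diploid array 2 (adjusted p = 0.0525), nor Tfdp1 in any fit without 1 array (0.0681 to 0.183).

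Fibroblast markers were above background on all 6 arrays in 12 of 12 genes. Of these 0 rose, 3 fell and 9 did not pass, where 7.75% of all genes tested fell. Postn was 2.75-fold and Col1a1 1.83-fold lower (adjusted p = 0.0129 and 0.0405). Col1a1 was called in 1 of the 6 fits without 1 array (adjusted p 0.0664 to 0.139 in the others). It did not pass with quantile normalization (0.0752) or the replicate block (0.0873). Postn lost its call without diploid array 2 or 3 (0.051 to 0.063). The median difference of the 12 was -0.63 log2, and 3 of the 12 had a positive difference. The largest of these was Pdgfra, named after its value was seen. It was higher in the tetraploid line without overlap and did not pass (1.39, adjusted p = 0.0619). The list had 1, 0 and 0 falls without diploid array 1, 2 and 3, and 2, 1 and 3 without tetraploid array 1, 2 and 3. Of 14 macrophage markers 0 rose and 2, Lyz2 and C1qa, fell (adjusted p = 0.0292 and 0.0401). Neither passed once values were raised to background (adjusted p = 0.0761 and 0.956), and each was called in 2 of the 6 fits without 1 array. The list had 7 falls without diploid array 1 and 0 without diploid array 2, diploid array 3 or tetraploid array 2. Of its genes, 7 of 14, Ptprc and Itgam among them, lay at or below background on all arrays. Adgre1 was listed at 0 on tetraploid array 1. The summed linear signal of the macrophage markers was 492 to 902 on the tetraploid arrays and 623 to 2999 on the diploid arrays. Their mean was 4.09, 4.53 and 4.32 log2 on tetraploid arrays 1 to 3, against 4.73, 6.36 and 7.14 on diploid arrays 1 to 3. Within the diploid line array 3 was the highest for 13 of the 14 macrophage markers, as for 39 of the 41 kinetochore and checkpoint genes, and the lowest array was array 1 for 11 of the 14 and array 2 for 29 of the 41. Of 8 epithelial markers 1 (Krt18) and of 7 endothelial markers 2 (Kdr and Emcn) fell, each with all tetraploid values at or below background. In both lists 0 rose, while 5 of the 8 epithelial and 3 of the 7 endothelial markers had a positive difference. On all 6 arrays 3 epithelial and 5 endothelial markers lay at or below background. The call of Krt18 ended without tetraploid array 2 (adjusted p = 0.0546), and those of Krt18 and Emcn once values were raised to background (0.463 and 0.337). The summed signal was 1071 to 1400 on tetraploid and 1108 to 1579 on diploid arrays for the epithelial list, and 366 to 436 on tetraploid and 823 to 891 on diploid arrays for the endothelial list. These sums include values at or below background. In the endothelial list only Kdr and Emcn exceeded it, on 3 and 2 diploid arrays. The part of these cell types in the result was not tested.

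**Figure D4:**
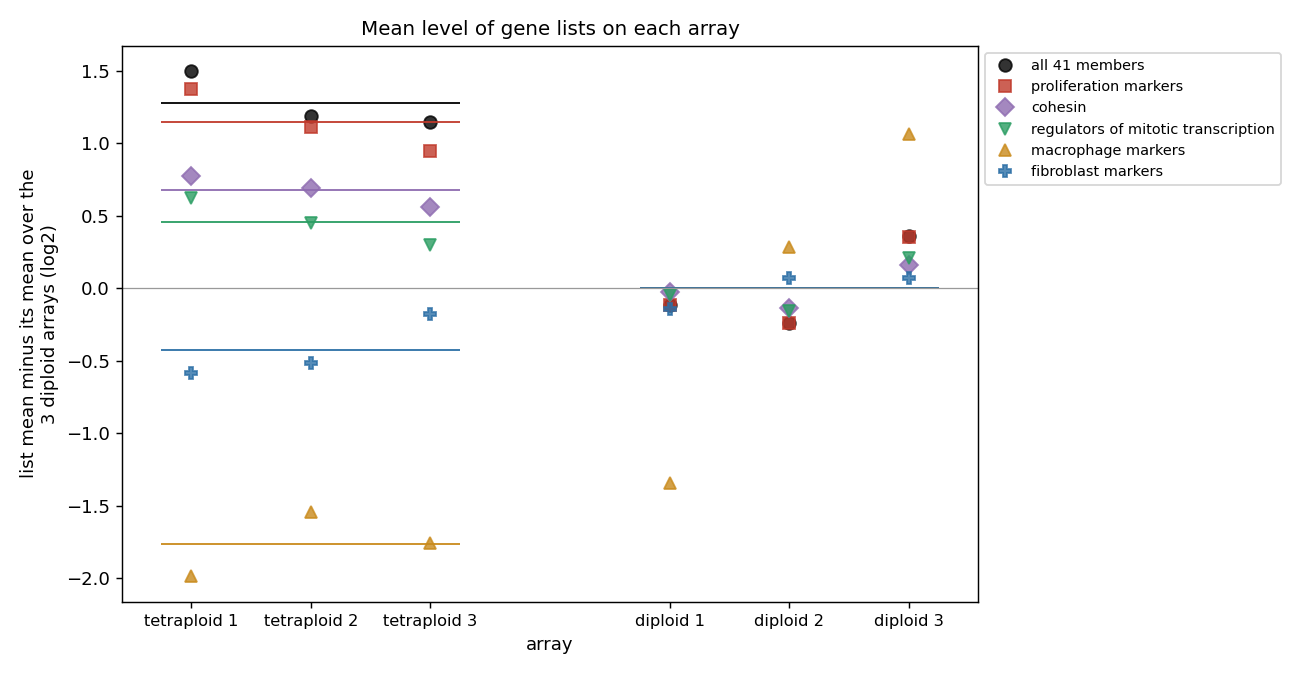
Mean log2 level of 6 gene lists on each array (x axis), minus the list's mean over the 3 diploid arrays (y axis), with horizontal lines at the mean of each line. The 41 kinetochore and checkpoint genes and the proliferation markers lie close to each other on every array, highest on tetraploid array 1 and, within the diploid line, on diploid array 3.

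The genes that did not pass were also compared with their neighbours on the chromosome, after the values had been seen, because whole regions differed between the lines. For each gene the median difference was taken over the 15 nearest measured genes on each side whose mean level was above the median. Cenpo had only 22 such neighbours. Of the 41 genes 40, Cenpl among them, lay above their neighbours' median, with a median excess of 1.34 log2 over the 41. The list was chosen with earlier results known and had a median difference of 1.33, so such a count was to be foreseen. The share of all genes that lie above their own neighbours is not given, and the count is a description with no test. On chromosome 1, where the median over 558 genes was -0.28, the neighbours of Nuf2 had a median of -0.56 and those of Cenpl -0.54. Nuf2 exceeded its neighbours by 1.10, and no excess is given for Cenpl, which lay at or below background on all arrays. The other members on that chromosome were Cenpf, Sgo2a and Nsl1, which rose although their neighbours had medians of -0.44, -0.40 and -0.28. The neighbours of Bub3, on chromosome 7, had a median of -0.55, so that Bub3 lay 0.43 above them. Cenpc1 and its neighbours both had a difference of -0.23, and Mis12 (0.17) stood beside neighbours at 0.04. The neighbours of Zw10, Cenpt and Birc5 had medians of -0.28, 0.23 and 0.03, and these genes exceeded them by 0.35, 0.53 and 0.89. On chromosome 15, where the median over 411 genes was 0.43, Cenpm exceeded its neighbours by 2.06 and Espl1 by 1.38. The part of these regions in any difference was not tested.

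**Figure D5:**
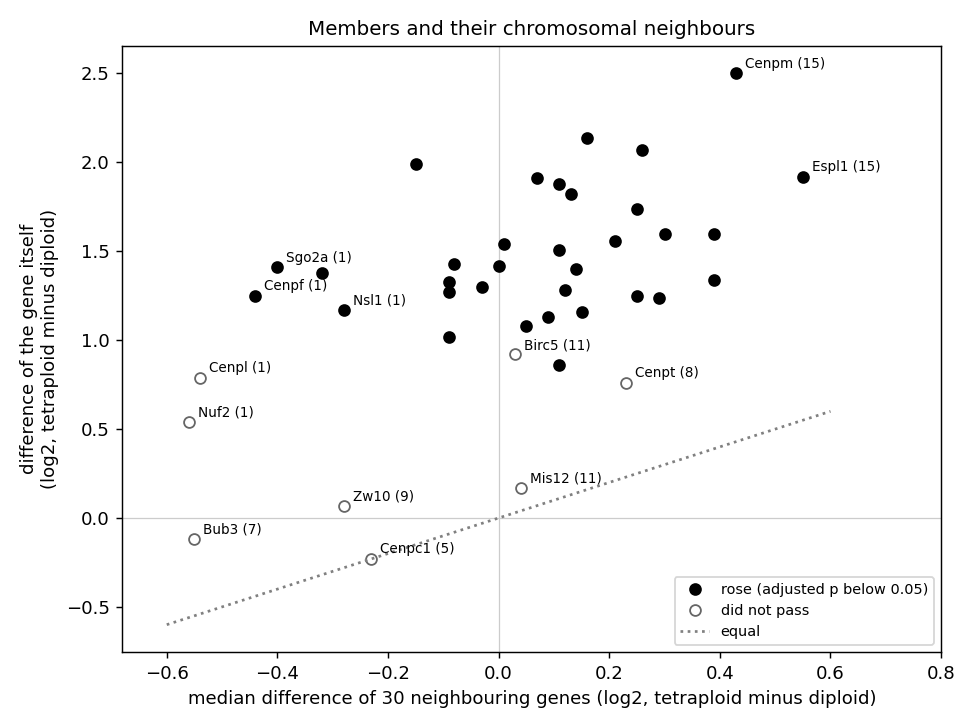
Log2 difference of each of the 41 genes (y axis) against the median log2 difference of its 30 neighbours (22 for Cenpo, x axis), both tetraploid minus diploid. The chromosome is in parentheses for members on chromosomes 1, 7 and 15 and for all that did not pass. The dotted line marks equal values, and 40 of the 41 genes lie above it.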

How the data were processed

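Transcript levels of 6 samples were read from the table of log2 intensities that the authors deposited, 1 value per probe set and array. Per the labels' protocols, ribosomal RNA was reduced and sense-strand target was labelled. Per the submitters' processing notes the tool was Affymetrix Expression Console. Its version, algorithm and normalization are not given in the sources used here. Array medians differed by at most 0.0435 log2, so the values were used as deposited. Arrays give no counts, so their number limits the precision.

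Of 28944 probe sets 21789 carried 1 gene symbol. Symbols were updated through Entrez ID with the RefSeq table of GRCm38.p6, and the probe set with the highest mean was kept for each of 19939 genes. Background was the 95th percentile of 1027 olfactory receptor genes on each array, 7.01 to 7.41 log2. A fold against a line at or below it on all arrays was computed against that level and is a lower bound. The lines were set against each other by limma 3.58.1, run in R 4.3.3 (lmFit, eBayes, two-sided, Benjamini-Hochberg over all genes, called below 0.05), tetraploid minus diploid. All adjusted p-values come from this fit or its alternatives. Replicate numbers recur in both lines, but deviations of same-numbered arrays correlated at only 0.100, 0.0308 and -0.0461, so no block was used.

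The genes, role groups and lists were chosen with earlier results of these data known. Every member was named, and of each other list the 2 largest called rises and falls. All regulators of mitotic transcription could be named. Motifs were searched on both strands. Hjurp and Ccnb1 had no single-gene probe set and were not analysed here.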

Additional observations from a re-analysis of the deposited data

How the results depend on the processing

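The 33 called genes kept a positive difference in each of 14 alternatives that held them (quantile normalization, array medians, dim genes left out, values raised to background, mean of probe sets, trend and robust variance, array weights, replicate block and 6 fits without 1 array). In the fits without 1 array the sign of these 33 genes was fixed in advance, since the lines did not overlap in any of them. Trend and robust variance and the replicate block leave the difference itself unchanged. The kept direction is thus a description. Leaving out dim genes removed 7 of the 41. The number of the 41 called was 30 to 35 in the first 7 of these alternatives, and calls over all genes were 2738 to 4011. With values raised to background the inner kinetochore median moved to 1.08. With the replicate block, for which the labels give no basis, 18 of the 41 and 1647 of all genes were called. Without 1 array, 9 to 27 of the 41 and 839 to 2522 of all genes were called, and the median difference of the 41 was 1.17 to 1.48. Without 1 array Zw10 ranged over -0.19 to 0.33 and Cenpc1 over -0.52 to 0.05. Zw10 changed sign without diploid array 2 (-0.04) and tetraploid array 1 (-0.19), Cenpc1 without diploid array 3 (0.05), and Bub3 after its neighbours' median was subtracted (0.43, chosen after the data had been seen). None of the 3 was called. Cenpt passed with array weights, quantile normalization, dim genes left out, trend and robust variance or values raised to background (adjusted p 0.00566 to 0.0491), and Birc5 in the last 3 of these (0.0387 to 0.0470). Spc25 did not pass after centring on array medians (0.0503). The cause was not tested. Levels under background limit what the values of Cenpl, Cenpc1, Cenpp, Cenpw and Nsl1 show, and the last 3 lost their calls once values were raised to it.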
